A study of Mus musculus with 8 samples.

Results

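Mitochondrial complex I genes of the nucleus were taken as all protein-coding genes of GENCODE M21 (mm10) whose symbol begins with Nduf, which gave 46 of the 21938 protein-coding genes on chromosomes 1 to 19, X and Y. They comprised 7 conserved core subunits, 29 accessory subunits, 8 assembly factors and the pair Ndufa4 and Ndufa4l2, which carry the name of the complex without being lasting parts of it. All 46 had an accessible promoter in every library examined. Among those that ranked lower at 39 °C than at 37 °C by both rankings used here were Ndufv1, the core subunit that takes electrons from NADH, and Ndufa4l2, a gene known to be induced by low oxygen. The peak ranked for Ndufa4l2 had its summit at -1914 bp from the 5′ end in the median library, and the gene dropped out of the test with a window of 500 bp or with the summit required in the window. When the same promoters were ranked in every library, a scale added after the data were seen, 3 of 46 members were called lower and 2 higher (Ndufa10 and Ndufb3), where 7.79% and 8.68% of all promoters were, so the members did not stand above the background. On that scale the call of Ndufv1 was lost when any 1 of 4 of the libraries was left out, and that of Ndufb3 when any 1 of 5 was.

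Complex I (NADH:ubiquinone oxidoreductase) is the entry point of electrons into the respiratory chain. Its matrix arm passes electrons from NADH through a flavin and a chain of iron-sulfur clusters to ubiquinone, and its membrane arm uses the energy to pump protons. The core membrane subunits are encoded by mitochondrial DNA and are not among these genes, so the complex is built from the products of both genomes. Dopaminergic neurons of the substantia nigra are known for their sensitivity to complex I inhibitors such as rotenone.

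Open DNA was tagged with a transposase (ATAC-seq) in SN4741 cells, with no genetic change described beyond the transgene of the line. SN4741 is a mouse line, reported to be clonal, derived from the embryonic substantia nigra of transgenic mice. It is made to divide by a temperature-sensitive SV40 T antigen behind a tyrosine hydroxylase promoter. The paper's karyotypes showed an unstable line with most chromosomes triploid and a complement that differed from cell to cell. Copy number was not taken into account, and its part in the ranks was not tested. The study asked how accessibility in this proposed model of dopaminergic neurons differs between the permissive temperature, 37 °C, in medium with 10% serum, and the non-permissive temperature, 39 °C, in medium with 0.5% serum for 48 h, begun 24 h after passage. There were 4 libraries per temperature, each from 50000 cells amplified for 12 cycles. Temperature and serum changed together, so their parts in any difference below cannot be told apart. The labels do not say whether the replicates were separate cultures, so p-values measure only the spread between these libraries, which may be technical. The peak caller kept 49787392 to 169183346 fragments per library, and 37 °C replicates 1 and 4, with 169183346 and 158068253, stood apart from the others. Promoter peaks were called at 5 of 6 neural precursor markers in all 8 libraries, at none for the sixth, Fabp7, and at 3 of 6 dopaminergic markers (Th, Nr4a2 and Pitx3). Slc6a3 was open in all 4 libraries of the 37 °C group but in 1 of the 39 °C group, and Slc18a2 and Ddc had none in any library. All 4 mesenchymal and all 3 astrocyte markers had peaks in all 8 libraries, against 1 of 4 oligodendrocyte markers and none of the 3 blood, 2 endothelial and 2 epithelial markers. Some of these other markers had peaks in part of the libraries, more of them at 37 °C: Olig1 in 4 and 0 (37 °C and 39 °C), Spi1 in 3 and 0, Cdh1 in 3 and 0, and Pecam1 and Epcam each in 4 and 3. The part of this marker pattern in the results was not tested.

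Every member had a peak no farther than 1 kb from an annotated transcription start (TSS) in all 8 libraries, 46 of 46, where 59.9% of all protein-coding genes did. A peak covered the annotated 5′ end itself in all 8 libraries at 44 of 46 members, against 52.1% of all genes. At Ndufa4l2 it was covered in all 4 libraries of the 37 °C group but in 1 of the 39 °C group. The summit of the promoter peak was within 100 bp of the annotated 5′ end at 29 members and within 250 bp at 38, taking the median over libraries. Among loci with the Nduf name that are not protein-coding, Ndufb1-ps, annotated as a non-coding RNA from a bidirectional promoter, and the pseudogene Ndufs6b had peaks in all 8 libraries, and the pseudogenes Ndufa11b, Ndufab1-ps and Ndufb4c had none in any.

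The strength of a promoter was expressed as a percentile: the share of open promoters of other protein-coding genes in the same library whose best peak had a lower −log10 q. The value is a rank within a library and carries no unit of depth. The 46 promoters were spread over nearly the whole range, with a median of 48.4 for the means over 8 libraries, and 7 were above 75 and 7 below 25. The strongest was Ndufa6, an accessory subunit of the matrix arm, at a mean percentile of 89.4. Ndufs8, a core subunit that holds iron-sulfur clusters, followed at 88.2 and Ndufv1 at 87.5. The weakest was Ndufa9, an accessory subunit at the junction of the arms, at 18.03, followed by Ndufc2 of the membrane arm at 20.7 and the assembly factor Ndufaf1 at 21.6. The levels of Ndufa6 were 86.6, 92.2, 91.3 and 88.2 at 37 °C and 89.4, 87.3, 90.7 and 89.8 at 39 °C. Those of Ndufa9 were 20.1, 18.9, 19.02 and 21.6 at 37 °C and 17.6, 16.2, 17.95 and 13.01 at 39 °C. Ndufa6 was thus in the upper part of every library and Ndufa9 in the lower part. The means of Ndufc2 were 23.4 ± 1.54 and 17.98 ± 1.51 and those of Ndufaf1 23.5 ± 1.75 and 19.7 ± 1.68 (37 °C and 39 °C, SD, n = 4 each). The groups overlapped at Ndufa6 and did not at Ndufa9, where all 4 libraries at 39 °C were lower. Ndufa9 and Ndufaf1 were not called (limma, adjusted p = 0.0637 and 0.0659), and among promoters open in all 8 libraries, a scale described further on, their score differences were of the other sign, 0.07 and 0.05. Of the 46, 21 stayed below the percentile of 50 in every library and 17 above it, as the plot of percentiles by library shows.

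**Figure D1:**
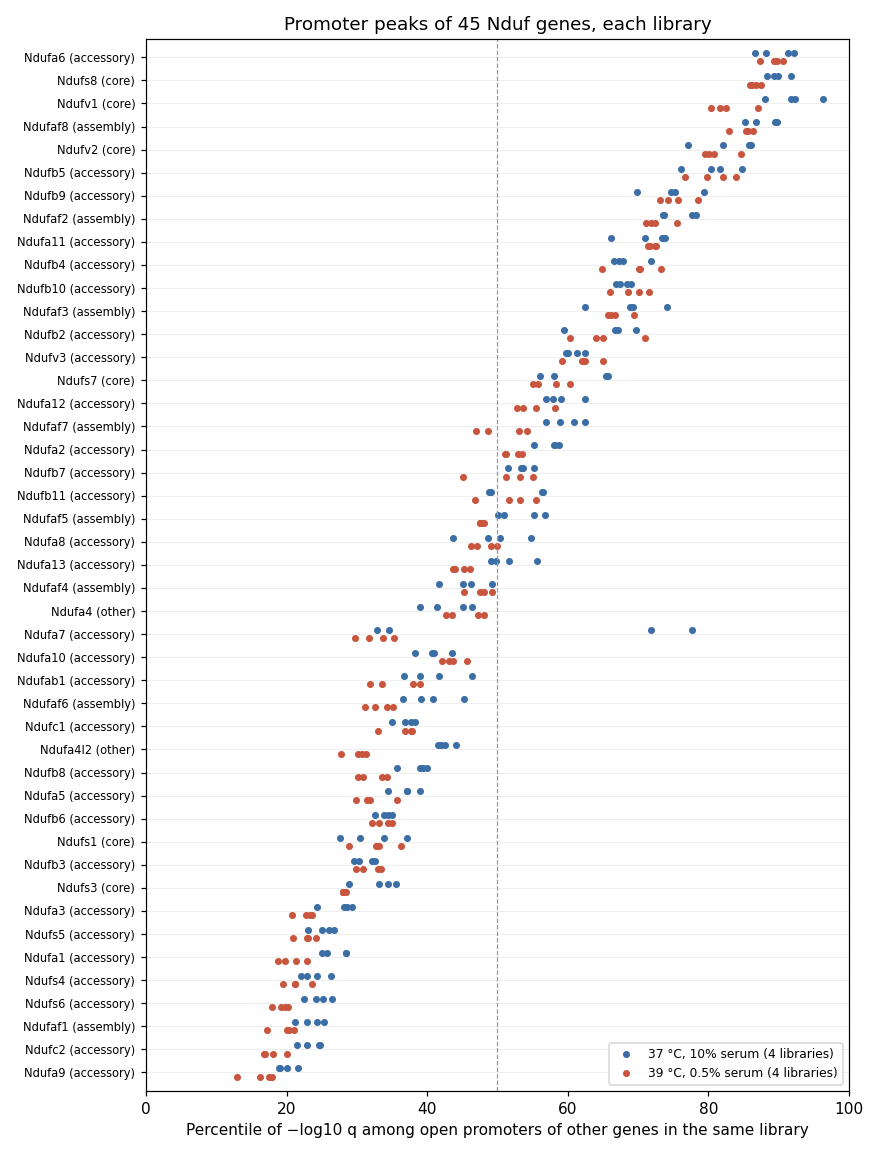
Each point is the promoter percentile (horizontal axis, 0 to 100, against open promoters of other genes in that library) of a member in a library (45 members), with 37 °C in blue and 39 °C in red, members sorted by mean from Ndufa9 (18.03) to Ndufa6 (89.4). The 2 points of Ndufa7 near 71.8 and 77.7 come from 37 °C replicates 1 and 4, where its peak had merged with a stronger peak upstream.

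The core subunits did not share a level. Their mean percentiles ran from 30.6 at Ndufs3 and 32.5 at Ndufs1 through 59.3 at Ndufs7 to 82.0 at Ndufv2, 87.5 at Ndufv1 and 88.2 at Ndufs8, with a median of 59.3. The ranges over 8 libraries of Ndufs3 (28.0 to 35.6) and Ndufs1 (27.7 to 37.2) overlapped, and both lay below that of Ndufs7 (55.0 to 65.7). The ranges of Ndufv2 (77.2 to 86.0), Ndufv1 (80.4 to 96.3) and Ndufs8 (86.0 to 91.8) also overlapped between neighbours. The ranges of Ndufs7 and Ndufv2 did not overlap. The median was 43.4 for the 29 accessory subunits, with extremes at Ndufa9 and Ndufa6, and 52.9 for the 8 assembly factors, which ran from 21.6 at Ndufaf1 to 86.5 at Ndufaf8.

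The promoters of the 2 strongest and 2 weakest members, and of 4 members called lower at 39 °C, are shown so that their letters can be set beside their ranks. The 4 (Ndufv1, Ndufa1, Ndufaf7 and Ndufs6) were called by rank among promoters open in each library, where 29.7% of all promoters were called lower. When the same promoters were ranked in every library, Ndufa1, Ndufaf7 and Ndufs6 were not called (limma, adjusted p = 0.327, 0.0618 and 0.839). Each sequence runs from 150 bases before to 30 bases after the start of a RefSeq transcript (GRCm38.p6), 5′ to 3′ on the strand of the gene. Capitals mark matches, on either strand, to the motifs listed further on.
Ndufa6, chr15:82354262-82354441, minus strand: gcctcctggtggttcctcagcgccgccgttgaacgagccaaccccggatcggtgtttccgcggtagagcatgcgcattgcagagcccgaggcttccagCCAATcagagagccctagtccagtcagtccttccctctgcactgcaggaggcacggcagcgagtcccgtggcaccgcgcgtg
Ndufs8, chr19:3912745-3912924, minus strand: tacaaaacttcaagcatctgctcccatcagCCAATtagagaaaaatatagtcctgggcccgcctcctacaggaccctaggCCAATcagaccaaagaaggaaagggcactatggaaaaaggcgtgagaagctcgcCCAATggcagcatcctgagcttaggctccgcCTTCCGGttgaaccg
Ndufa9, chr6:126849115-126849294, minus strand: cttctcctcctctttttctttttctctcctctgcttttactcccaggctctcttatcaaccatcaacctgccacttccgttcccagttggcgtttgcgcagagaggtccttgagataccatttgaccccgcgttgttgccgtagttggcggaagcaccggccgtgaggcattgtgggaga
Ndufc2, chr7:97399853-97400032, plus strand: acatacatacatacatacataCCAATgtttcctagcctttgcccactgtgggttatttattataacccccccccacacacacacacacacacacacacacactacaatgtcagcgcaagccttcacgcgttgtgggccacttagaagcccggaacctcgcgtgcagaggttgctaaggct
Ndufv1, chr19:4012726-4012905, minus strand: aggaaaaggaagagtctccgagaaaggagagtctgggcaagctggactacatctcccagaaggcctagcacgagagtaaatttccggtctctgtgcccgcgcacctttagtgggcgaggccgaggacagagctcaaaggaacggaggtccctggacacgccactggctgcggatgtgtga
Ndufa1, chrX:37191209-37191388, minus strand: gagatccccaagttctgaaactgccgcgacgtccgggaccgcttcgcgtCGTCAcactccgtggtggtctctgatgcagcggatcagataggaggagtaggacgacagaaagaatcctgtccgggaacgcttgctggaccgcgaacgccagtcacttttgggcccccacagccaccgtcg
Ndufaf7, chr17:78936985-78937164, plus strand: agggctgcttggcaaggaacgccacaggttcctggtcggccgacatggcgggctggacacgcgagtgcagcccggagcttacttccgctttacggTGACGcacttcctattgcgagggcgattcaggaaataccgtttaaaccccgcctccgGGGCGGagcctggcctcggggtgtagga
Ndufs6, chr13:73328453-73328632, minus strand: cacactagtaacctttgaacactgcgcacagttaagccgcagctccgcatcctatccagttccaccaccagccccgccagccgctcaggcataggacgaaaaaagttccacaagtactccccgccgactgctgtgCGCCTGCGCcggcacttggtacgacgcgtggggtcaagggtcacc
Ndufs8 held 3 CCAAT boxes, the letters bound by NFY, starting 120, 70 and 16 bases before the start, and Ndufa6 held 1, 52 bases before it. Ndufa9 and Ndufv1 held no match to any listed motif in this stretch. Ndufs6, a zinc-binding accessory subunit, held an NRF1 match starting 15 bases before the start. The positions are descriptions of the letters and say nothing of binding.

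Between temperatures, members were compared first by rank among all promoters open in the same library, turned into a normal score and tested with limma, with Benjamini-Hochberg adjustment over the 13145 promoters open in all 8 libraries. At an adjusted p under 0.05, 15 of 46 members ranked lower at 39 °C and 0 ranked higher. Over all promoters 29.7% were called lower and 3.9% higher, so the members' 15 of 46 was near the background. Without adjustment 19 members had p under 0.05 (limma). The share of all promoters at that cutoff was not taken, so this count has no background beside it. The groups of 4 did not overlap at 17 members, all lower at 39 °C, where 32% of all promoters were lower without overlap and 3.86% higher without overlap, and the exact permutation test gives its smallest two-sided p, 0.02857, to such a split. Lower calls made up 88.4% of all calls on this scale. The 37 °C libraries had 14292 to 14872 open promoters and the 39 °C libraries 13269 to 13831, so the ranks were not taken over the same promoters. The median score over all promoters tested fell by 0.09 and that over members fell by 0.10.

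When only the promoters open in all 8 libraries were ranked, a scale added after the data were seen, the median shift over all promoters was 0.02 and 7.79% of them were called lower and 8.68% higher, so that lower calls made up 47.2%. Of the 46 members, 3 were then lower, Ndufv1 and Ndufa4l2 among them, and 2 higher (Ndufa10 and Ndufb3). The median member differed by -0.00287 in score. The median of the members' percentiles averaged 51.6 ± 2.94 over the 37 °C libraries and 47.4 ± 0.721 over the 39 °C libraries (SD, n = 4 each) on the first scale, a difference of -4.15 that was -1.09 among promoters open in all 8 libraries. Below, the first value is the score difference among promoters of the library and the second that among promoters open in all 8.

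**Figure D2:**
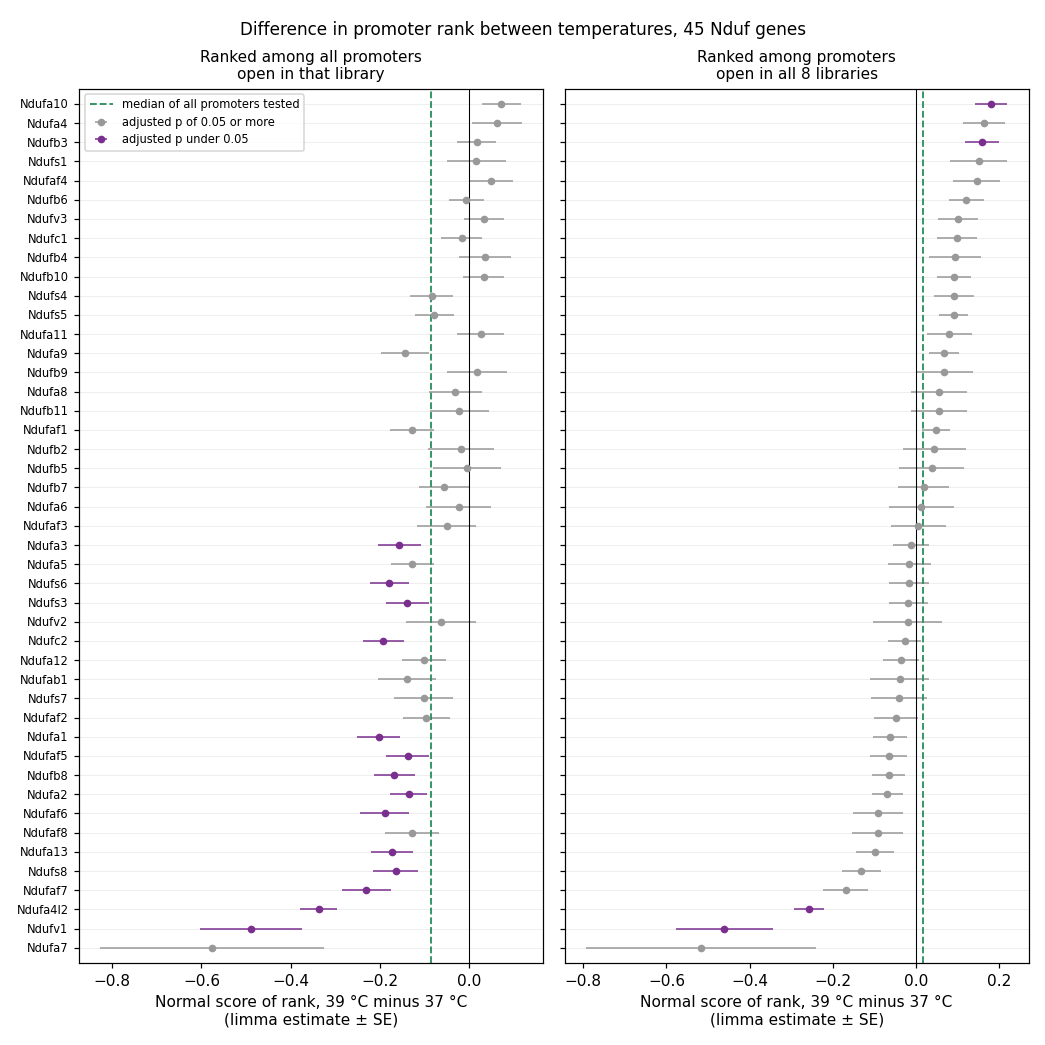
The difference in normal score of rank, 39 °C minus 37 °C, is plotted for 45 members with its limma SE on both scales, members sorted by the right panel, purple where the adjusted p was under 0.05. The dashed line is the median of all 13145 promoters tested, at -0.09 on the left and 0.02 on the right. Ndufv1 and Ndufa4l2 are purple and below 0 in both panels, and Ndufa10 and Ndufb3 are purple and above 0 on the right.

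Ndufv1 (chr19:4007384-4012806, minus strand) had percentiles of 88.05, 91.8, 92.3 and 96.3 at 37 °C and of 82.5, 81.7, 87.1 and 80.4 at 39 °C. It was among the strongest members at both temperatures, and the groups did not overlap. The differences were -0.49 ± 0.11 (adjusted p = 0.0105) and -0.46 ± 0.12 (adjusted p = 0.0277, limma). In 37 °C replicate 4 the best peak counted for Ndufv1 was a neighbouring one of 11605 bp with its summit 12296 bp downstream of the 5′ end, beyond the gene. With peaks restricted to summits within 1 kb of a TSS, and promoters open in all 8 libraries by that rule, the difference was -0.40 with adjusted p = 0.00655. Without 37 °C replicate 2, or without 39 °C replicate 1, 2 or 4, Ndufv1 was no longer called on the second scale.

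Ndufs8 and Ndufs3 were called lower on the first scale and not on the second. Ndufs8, at 89.3, 88.3, 89.85 and 91.8 against 86.0, 87.45, 86.8 and 86.2, differed by -0.17 ± 0.05 (adjusted p = 0.0293) and by -0.13 ± 0.05 (adjusted p = 0.0866, limma). Ndufs3, also of the matrix arm, differed by -0.14 ± 0.05 (adjusted p = 0.0488) and by -0.02 ± 0.05 (adjusted p = 0.817). Among the fits that left out a single library, its call on the first scale held only without 37 °C replicate 3. That call was also lost with the replicate number as a block or at −log10 q of at least 2. The mean percentiles at 37 °C and 39 °C were 61.3 ± 4.97 and 57.4 ± 2.46 for Ndufs7, 32.3 ± 4.14 and 32.7 ± 3.04 for Ndufs1, the largest core subunit, and 82.8 ± 4.16 and 81.3 ± 2.34 for Ndufv2 (SD, n = 4 each). None of these 3 passed the test on either scale.

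Of the 29 accessory subunits, 7 were called lower and 0 higher on the first scale, and 0 lower and 2 higher on the second. The 7 were Ndufa1, Ndufa2, Ndufa3, Ndufa13, Ndufb8, Ndufc2 and Ndufs6. Their mean percentiles differed by -4.99 points at Ndufa3 to -6.85 points at Ndufa13, and on the second scale their score differences lay between -0.10 and -0.01. Ndufa1, a small membrane-arm subunit needed for assembly, had percentiles of 28.5, 25.8, 25.05 and 28.5 at 37 °C and 22.9, 21.4, 19.8 and 18.7 at 39 °C. Its groups did not overlap, yet its difference on the second scale was -0.06 ± 0.04 (limma, adjusted p = 0.327).

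Ndufa10, a membrane-arm subunit with a nucleoside kinase fold, was at 43.5, 40.7, 38.3 and 40.9 at 37 °C and at 45.7, 43.1, 43.7 and 42.1 at 39 °C, so the groups overlapped. It differed by 0.07 ± 0.04 (adjusted p = 0.229) and by 0.18 ± 0.04 (adjusted p = 0.0156, limma). It had the largest rise in mean percentile, 2.80 points, followed by Ndufa4 with 2.43 and Ndufaf4 with 1.94. Ndufb3, also of the membrane arm, was at 32.2, 29.6, 30.3 and 32.65 against 33.0, 33.4, 29.8 and 30.8. Its percentiles overlapped widely, and its difference was 0.02 ± 0.04 (adjusted p = 0.794) on the first scale and 0.16 ± 0.04 (adjusted p = 0.0301, limma) on the second. Both higher calls were lost without 37 °C replicate 4, and that of Ndufb3 also without 37 °C replicates 1 and 4 together (adjusted p = 0.1004), without 37 °C replicate 2, without 39 °C replicate 1, 2 or 4, or with the replicate number as a block.

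The largest fall in mean percentile, 21.6 points, belonged to Ndufa7 of the matrix arm, but its libraries at 37 °C did not share a level. They were at 71.8, 32.9, 34.5 and 77.7, against 33.7, 29.7, 35.3 and 31.7 at 39 °C. Replicates 1 and 4 at 37 °C, the deepest libraries, had peaks of 10660 and 8935 bp whose summits lay at -6864 and -6941 bp from the 5′ end (upstream), near a start of Kank3. The other 6 libraries called that upstream region as a peak of its own and had a separate peak at Ndufa7 with its summit 4 to 6 bp from the 5′ end. The difference was -0.58 ± 0.25 (limma, adjusted p = 0.0997), which did not pass. Ndufb10 also took its rank from a distant summit, 4532 bp from its 5′ end at most and 17 bp from a start of the non-coding RNA gene Snhg9. In all, 4 members (Ndufa4l2, Ndufa7, Ndufb10 and Ndufv1) had in at least 1 library a best peak whose summit was over 1 kb from every start of their own.

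Of the 8 assembly factors, which help build the complex and then leave it, 3 were called lower on the first scale (Ndufaf5, Ndufaf6 and Ndufaf7) and 0 in either direction on the second. Ndufaf7, an arginine methyltransferase, was at 56.9, 58.9, 60.9 and 62.5 at 37 °C and at 46.9, 53.1, 54.25 and 48.6 at 39 °C. Every library at 39 °C was below every library at 37 °C. Its differences were -0.23 ± 0.05 (adjusted p = 0.0116) and -0.17 ± 0.05 (adjusted p = 0.0618, limma), and it passed among peaks with summits within 1 kb (-0.19, adjusted p = 0.0376). Ndufaf5 had means of 53.3 ± 3.28 and 47.8 ± 0.300 and Ndufaf6 of 40.5 ± 3.62 and 33.3 ± 1.77 (SD, n = 4 each), with no call for either on the second scale. Ndufaf8, the strongest of the assembly factors, had means of 87.8 ± 2.19 and 85.1 ± 1.497 and was not called on either.

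Ndufa4, now known as a subunit of cytochrome c oxidase, and its paralog Ndufa4l2 went opposite ways in mean percentile. Ndufa4 was at 46.4, 41.3, 38.9 and 45.1 at 37 °C and at 47.2, 48.0, 43.6 and 42.7 at 39 °C, and the groups overlapped. Its difference was 0.06 ± 0.06 (adjusted p = 0.414) and 0.16 ± 0.05 (adjusted p = 0.0532, limma), and on the second scale it was called higher without 37 °C replicates 1 and 4 together, or without 37 °C replicate 1 alone. Ndufa4l2 was at 44.1, 41.5, 42.0 and 42.5 at 37 °C and at 30.1, 31.3, 30.8 and 27.8 at 39 °C, with no overlap. Its mean went from 42.5 ± 1.13 to 30.0 ± 1.56 (SD, n = 4 each), and it differed by -0.34 ± 0.04 (adjusted p = 0.000648) and by -0.26 ± 0.04 (adjusted p = 0.00199, limma). The difference between the paralogs was not tested.

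The peak that gave Ndufa4l2 its rank was upstream of the gene. Ndufa4l2 is on the plus strand at chr10:127514967-127517154, and the summit was at -1914 bp from the 5′ end in the median library. At 37 °C the peak was 10236, 10280, 8608 and 10335 bp wide, ran over the 5′ end in all 4 libraries and ended 2014 to 2135 bp inside the gene. At 39 °C it was 3624, 3486, 3552 and 2958 bp wide and ended before the gene, between -938 and -596 bp. The upstream stretch that the 37 °C peak also spanned was called at 39 °C as a peak of its own, 1441 to 1783 bp wide. Separate weak peaks of 420 to 875 bp were called within 1 kb of the 5′ end in 39 °C replicates 2 and 3, and the library of replicate 2 was the only one of the 4 with a peak over the 5′ end base. That peak of 420 bp had a fold enrichment of 2.22, where the upstream peak in the same library had 36.7. With a window of 500 bp in place of 1 kb, 45 of 46 members were open in all 8 libraries.

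**Figure D3:**
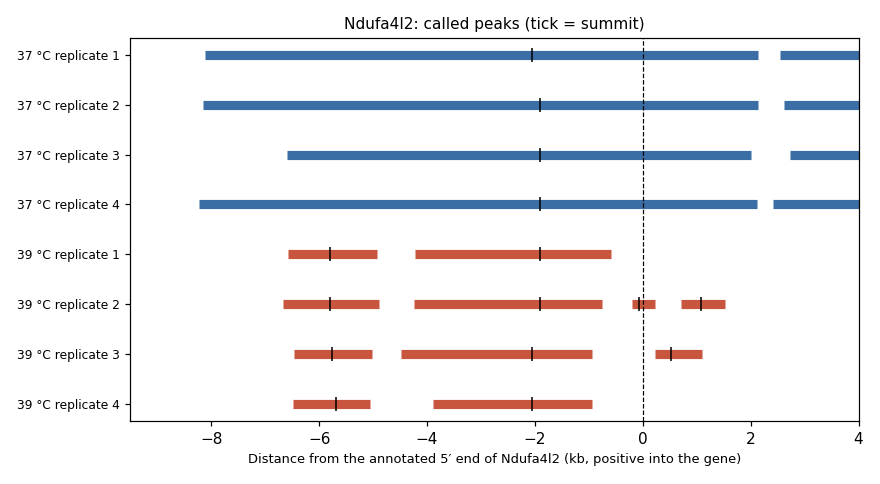
Bars are the peaks called in each library around Ndufa4l2, with the distance from the annotated 5′ end in kb on the horizontal axis (positive into the gene), 37 °C in blue, 39 °C in red, and a tick at each summit. A bar lies over the dashed line, the 5′ end, in all 4 libraries of the 37 °C group but in 1 of the 39 °C group, and the bar with the summit near -1914 bp is present in all 8.

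Peak widths were compared after centring log2 width on the median promoter of each library, since that median ran from 1849 to 2582 bp. Members ranged from 948 to 11605 bp, and the median member was narrower than the median of other open promoters in all 8 libraries, for example 1893.5 against 2208 bp in 37 °C replicate 2 and 1766.5 against 1850 bp in 39 °C replicate 4. Relative to their library, 1 member was narrower at 39 °C and 5 were wider, where 6.64% of all promoters were narrower and 3.84% wider. The narrower member was Ndufa4l2, at -1.29 ± 0.07 (SE) in log2 width (limma, adjusted p = 1.69e-05). No member was narrower when the peak had to cover the annotated 5′ end, a choice that left 44 members and dropped Ndufa4l2.

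The wider members were Ndufa6, Ndufa10, Ndufa12, Ndufb3 and Ndufs4, all accessory subunits. Ndufa6 was 2715, 2485, 2169 and 2786 bp wide at 37 °C and 3041, 3906, 2796 and 2587 bp at 39 °C, and its centred log2 width differed by 0.51 ± 0.10 (limma, adjusted p = 0.0181). Its groups overlapped in bp. Ndufs4, a matrix-arm subunit whose loss in mice models Leigh syndrome, was 1870.5 ± 239 bp at 37 °C and 1957.5 ± 107 bp at 39 °C (SD, n = 4 each), with a difference of 0.32 ± 0.06 and adjusted p = 0.0229. The differences were 0.34 ± 0.07 for Ndufa12, 0.27 ± 0.06 for Ndufb3 and 0.25 ± 0.06 for Ndufa10, with adjusted p of 0.0247, 0.0221 and 0.0452. Without centring 0 members were wider, narrower calls made up 99.4% of all width calls in place of 63.4%, and 40 of 46 members had the lower mean width in bp at 39 °C. The count of wider members was 0 without 37 °C replicate 1, 1 without 37 °C replicate 4 or 39 °C replicate 2, 2 without 39 °C replicate 1 or 4, 3 without 39 °C replicate 3 and 12 without 37 °C replicate 3. The count over all promoters moved with it, from 505 as reported to 126 without 37 °C replicate 1, 93 without 37 °C replicate 4 and 1507 without 37 °C replicate 3.

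**Figure D4:**
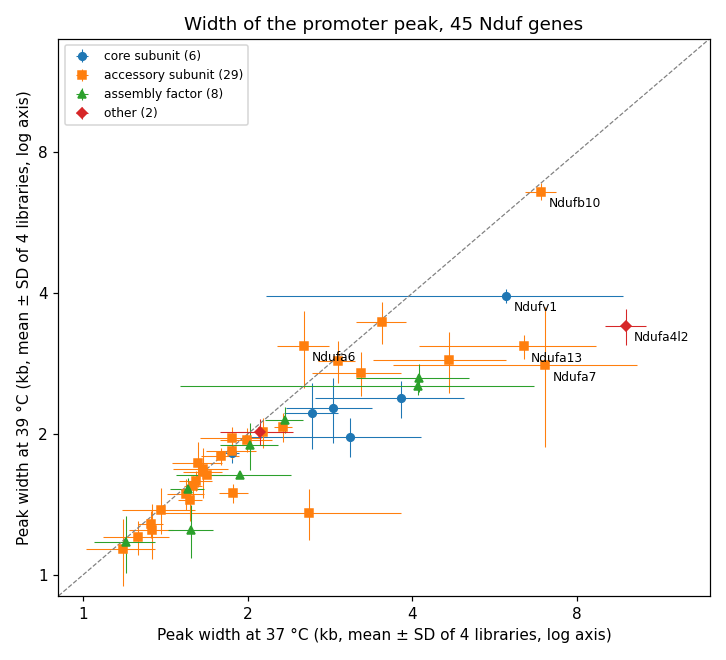
Mean width of the promoter peak in kb at 37 °C (horizontal) and 39 °C (vertical), both on log axes, for each of 45 members, with bars of 1 SD over 4 libraries and symbols by role. The point of Ndufa4l2 is farthest below the dashed line of equal width. The wide horizontal bar of Ndufa7 comes from 37 °C libraries where peaks had merged. That of Ndufv1 comes from 37 °C replicate 4, where a neighbouring peak of 11605 bp was counted.

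Away from promoters, 21 peak regions overlapped 12 of the member genes, counting regions called in at least 2 libraries and farther than 1 kb from every TSS of the gene. Of these regions 16 lay inside the gene and 5 ran past its 3′ end, among them that of Ndufs8, with 77 of its 6545 bp in the gene, and that of Ndufs7, with 1319 of 7165 bp. Of the 21, 8 were called in all 8 libraries, which is 38.1%, against 46% of such regions in all protein-coding genes. They were 2 at Ndufs4, and 1 each at Ndufa10, Ndufa13, Ndufaf2, Ndufb6, Ndufs7 and Ndufs8. The region in Ndufaf2, at chr13:108039099-108046360, was the widest at 7262 bp and overlapped no exon of the gene. A split of 4 libraries at 37 °C against 0 at 39 °C was seen at 4 of the 21, where 6.66% of all such regions had it, and the opposite split at 0, where 0.314% had it. Those inside their gene were 1 region of 1031 bp in Ndufs3 and 1 of 2481 bp in Ndufa13. The others lay mostly past the gene, with 409 of 1419 bp inside Ndufs3 and 663 of 2742 bp inside Ndufa11. With equal numbers of peaks per library, or with −log10 q of at least 5, 1 such region was left.

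Many members shared a promoter with a divergent neighbour. An annotated start on the opposite strand lay from 100 bp inside to 1 kb before the 5′ end at 20 of 46 members (43.5%), and at 19 of them the neighbour was protein-coding. The share was 14.7% of all protein-coding genes and 22.3% of those open in all 8 libraries. Partners included the ribosomal protein gene Rps28 at Ndufa7 (10 bp away), the translation factor gene Eef1b2 at Ndufs1, the mitochondrial ribosomal gene Mrpl36 at Ndufs6, and Rbm10 at Ndufb11 (3 bp). A peak at such a promoter belongs to both genes, so that their ranks cannot be told apart.

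RefSeq promoters, from 250 bases before to 50 after a transcript start, were found for 40 of the 46 members, and those without one included Ndufa2, Ndufa4l2, Ndufaf6, Ndufb9 and Ndufs1. Their median C+G content was 59.2%, between 57.0% for all 16522 promoters matched and 61.3% for those of the 10153 other genes open in all 8 libraries, and their median CpG observed-over-expected ratio was 0.828, against 0.602 and 0.771. The RefSeq start lay within 50 bp of the annotated 5′ end at 25 of the 40 members, and was up to 538 bp away (Ndufa13). Motifs were searched as exact letters on both strands, and shares are given for members, other open promoters and all promoters in that order. NRF1 (GCGCANGCG), known as a regulator of respiratory genes, was in 10 of 40 (25%, 13.9% and 9.22%). YY1 (AAGATGG) was in 8 (20.0%, 7.06% and 6.43%), the ETS letters CCGGAAG bound by GABPA in 6 (15.0%, 18.3% and 12.3%) and the longer CCGGAAGT, which contains them, in 1 (2.50%, 8.47% and 5.54%). GGGCGG of the SP and KLF factors was in 21 (52.5%, 66.2% and 48.2%) and CCAAT of NFY in 14 (35.0%, 38.9% and 38.8%). TGACG of CREB was in 16 (40.0%, 31.7% and 24.4%) and TGACGTCA, which contains it, in 3 (7.5%, 3.25% and 2.42%). The letters AAGGTCA of ESRRA were in 3 (7.5%, 2.93% and 3.92%), the E-box CACGTG in 2 (5.00%, 10.1% and 8.09%), TATAAA in 4 (10.0%, 6.55% and 12.9%) and the palindromic TCTCGCGAG in 2 (5.00%, 1.54% and 1.05%).

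Members with and without a motif can be set beside their ranks as a description. The 14 members with CCAAT had a median percentile of 63.5 and the 26 without it 43.8. The 8 with AAGATGG (Ndufa3, Ndufa9, Ndufaf8, Ndufb8, Ndufc1, Ndufs4, Ndufs6 and Ndufs7) had a median of 30.2 and the others 51.4. For the 10 with NRF1 letters, among them Ndufa6, Ndufb10 and Ndufs6, the medians were 49.6 and 46.1. The rank of Ndufb10 came from a distant summit near a start of Snhg9, not from the stretch searched. These splits were made after the levels were known and were not tested.

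For comparison, all 10 further complex I assembly factors in the annotation (Coa1 was not found), 8 genes of complex II, 12 of complex III, 23 of complex IV, 21 of complex V and 12 transcriptional regulators were open in all 8 libraries. On the first scale 3, 1, 3, 6, 4 and 2 of them were lower at 39 °C, in that order, and 0, 0, 1, 1, 0 and 1 higher, beside 29.7% and 3.9% of all promoters. Among promoters open in all 8 libraries the counts were 0, 0, 0, 1, 0 and 0 lower and 1, 2, 1, 2, 0 and 1 higher, beside 7.79% and 8.68% of all promoters. Their median percentiles were 42.8, 43.1, 60.4, 53.5, 67.8 and 72.5, beside 48.4 for the Nduf genes.

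For each list the gene with the largest score difference among promoters open in all 8 libraries is given. Gabpb1, the partner of the ETS factor GABPA, was at 65.3, 65.8, 58.3 and 62.4 at 37 °C and at 77.8, 73.5, 72.4 and 75.9 at 39 °C, a difference of 0.41 ± 0.06 (limma, adjusted p = 0.00273), and all libraries at 39 °C were higher. Uqcrq of complex III went from 75.3 ± 1.28 to 81.5 ± 2.02 (SD, n = 4 each) with 0.27 ± 0.05 and adjusted p = 0.0082. Sdhaf1, an assembly factor of complex II, differed by 0.20 ± 0.05 (adjusted p = 0.0262) and Dmac1, of complex I, by 0.16 ± 0.04 (adjusted p = 0.0269). Surf1 of complex IV, at 63.4 ± 17.0 and 46.1 ± 1.65, and Atp5d of complex V, at 85.8 ± 18.6 and 59.1 ± 4.37, had a wide spread at 37 °C and did not pass on this scale (adjusted p = 0.176 and 0.0509).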

How the data were processed

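Chromatin accessibility in 8 ATAC-seq libraries of SN4741 cells (4 at 37 °C, 4 at 39 °C, grouped by the sample labels) was compared through the peak lists. The authors aligned paired reads to mm10 with Bowtie2 2.4.1, sorted and deduplicated them with SAMtools 1.15.1 and Picard 2.26.11, and called peaks per library with MACS3 3.0.0a7 without a control or local background, at a q-value cutoff of 0.05 and with 1 fragment kept per position, per the file headers and the submitters' processing notes. Each deposited peak has a position, a pileup signal in fragments, a fold enrichment (a ratio over 1 background level in the whole library) and p-value and q-value on the −log10 scale. They hold no read counts, and positions on mm10 count from 1. A step that removes peaks over artefact-prone regions (bedtools 2.30.0) is described in the methods, but peak numbers run without a gap in all 8 lists. The caller still found 15% to 37% of fragments redundant, per the file headers.

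A gene was open in a library when a peak overlapped the 1 kb on either side of any TSS in GENCODE M21 by at least 1 bp, and its peak was that with the highest −log10 q. With 1 background level per library, fold enrichment orders peaks as −log10 q does, so ranking by it was no separate check. Ranks among open promoters of a library were turned into normal scores, and log2 widths were centred on the library's median. Both were fitted with limma 3.58.1 (R 4.3.3) on temperature, with empirical Bayes and Benjamini-Hochberg adjustment over the 13145 promoters open in all 8 libraries and a threshold of 0.05. The fits were tested on simulated data. Percentiles were compared by the exact permutation test, two-sided. Caller depth was 49787392 to 169183346 fragments, and no alternative changed depth alone, since leaving out the 2 deepest libraries also left 2 at 37 °C. The alternatives were other q cutoffs, equal numbers of peaks, other promoter definitions, other scales, fewer libraries and a replicate block.

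Named were members called in rank or width, the 3 highest and lowest, the 3 largest rises and falls, the core subunits, Ndufa4 and Ndufa4l2, and the gene of largest difference in each other list. Counts cover all 46 members, but 1 member is not reported here by name or value and is left out of the figures. The members and lists were chosen with earlier results of these data known. Python 3.11.15 with pandas 2.3.3, scipy 1.17.1 and matplotlib 3.10.9 was used otherwise.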

Additional observations from a re-analysis of the deposited data

Results flagged for a closer look

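Percentiles were screened for a library far from the other 3 of its temperature by Dixon's ratio over 92 groups of 4, at a critical value that chance exceeds in about 1 of 20 groups. There was 1 such group. Ndufs3 in 39 °C replicate 2 was at 28.39, where the other libraries at 39 °C lay between 28.01 and 28.07, a ratio of 0.8455. The distance is small beside the spread of Ndufs3 at 37 °C (33.0 ± 2.98, SD, n = 4).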

How the results depend on the processing

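Members lower at 39 °C, 15 as reported, numbered 4 with equal numbers of peaks and 4 in the 6 libraries left without 37 °C replicates 1 and 4, 3 with absent libraries at the lowest rank, 3 among promoters open in all 8 libraries and 3 when the summit also had to lie in the window (the last 2 chosen after seeing the data), and 7 to 16 without each library, with 7 without 37 °C replicate 4. Members higher, 0 as reported, numbered 1, 0, 2, 2 and 2 under the same 5 settings and 0 without any single library. Over all promoters, lower calls numbered 3902 as reported, 1719, 1405, 1016, 1021 and 1054 under these settings, and 2344 to 3970 without each library. Higher calls numbered 513 as reported and 772, 253, 1331, 1141 and 869 under them, of 12273 to 14783 promoters tested. Lower members numbered 17 with the summit in the window alone, 18 by the annotated 5′ end and 17 with the percentile as response. All promoters lower were then 4056, 4112 and 4163. The share of lower among all rank calls was 88.4% as reported, 69.0% with equal numbers of peaks and 43.3% with absent libraries at the lowest rank. Among promoters open in all 8 libraries, 3 lower became 2 to 4 and 2 higher became 0 to 3 without each library. Over all promoters 550 to 1015 were then lower and 541 to 1199 higher. Ndufa4l2 was called lower in each of these 8 fits, and in the 6 libraries 3 were lower and 2 higher (Ndufa10 and Ndufa4, with Ndufb3 no longer called). The count of narrower members, 1 as reported, was 0 with 500 bp, 0 with the summit in the window and 0 with a peak over the 5′ end (chosen after seeing the data), settings that left Ndufa4l2 out of the test. It was 2 without centring, 3 by bases covered, where Ndufa4l2 did not pass (-2.30, limma, adjusted p = 0.089), and 1 to 4 without each library (2 without 37 °C replicate 2, 4 without 37 °C replicate 3). That of wider members, 5 as reported, was 0 in those 6 libraries, 0 without centring, 1 by bases covered and 0 to 12 without each library. Over all promoters, narrower calls numbered 873 as reported, 1309 without centring, 1748 by bases covered and 476 to 1273 without each library. Wider calls numbered 505 as reported, 48 in those 6 libraries, 8 without centring, 96 by bases covered and 93 to 1507 without each library. The fall in the median member percentile, -4.15, was -1.09 among promoters open in all 8 libraries and -1.78 in those 6 libraries. Regions in gene bodies, 21, were 11 with equal numbers of peaks, and those called 4 against 0, 4 as reported, were 1 in that setting and 1 at −log10 q of at least 5. The cause of the other changes was not tested.

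With the replicate number as a block, 9 members were lower in rank, 2 narrower and 1 wider, where 3052, 429 and 43 of all promoters tested were. Among promoters open in all 8 libraries 3 were lower and 1 higher (Ndufa10, with Ndufb3 no longer called), where 856 and 878 of all were. The labels state no pairing, same-numbered libraries did not all deviate together in rank (correlations of 0.22, -0.13, 0.25 and -0.24), and only replicate 3 in rank and replicate 1 in width correlated best with their own number.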
